A study of Mus musculus with 4 samples.

Results

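Tuft-1 cells are a small class of tuft cells from the injured mouse pancreas, named in the authors' deposited subtype labels. All cells that carry this label were taken, 210 of 2586 cells in the deposited table of tuft and enteroendocrine cells and of 21140 cells in the series (0.993%). By mouse they numbered 6 and 166 at 2 weeks and 12 and 26 at 4 weeks, so 79.0% came from the second 2-week mouse. All 210 also carried the deposited main type Tuft, and as a subtype they filled 1 deposited cluster of their own. The cells were compared with the deposited subtypes Tuft-2 (457 cells), Tuft-3 (494 cells) and MucinDuctalProgenitor (156 cells). MucinDuctalProgenitor counted 5 and 118 cells at 2 weeks and 13 and 20 at 4 weeks.

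The donors were CD-1 backcrossed mice of the genotype Ptf1aCre-ERTM;ROSAYFP/+, aged 10 weeks when injury began. In them tamoxifen switches on EYFP, a yellow fluorescent protein, through a Cre driven by Ptf1a, a gene of acinar cells. Every mouse received tamoxifen and then caerulein, a peptide that provokes pancreatitis. 2 mice were given caerulein for 2 weeks and 2 mice for 4 weeks, and no uninjured mouse was analysed here. EYFP-positive cells were sorted and sequenced with 10x Genomics 3' chemistry, which counts transcripts by unique molecular identifiers (UMIs).

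Tuft cells are rare chemosensory epithelial cells with a stiff apical brush border. They carry a taste-type signalling chain in which a receptor acts through a G protein and phospholipase C to open the ion channel encoded by Trpm5, and they release eicosanoids and the cytokine IL-25. Pou2f3 encodes the transcription factor that tuft cells depend on, and Gnat3 encodes gustducin, the G protein alpha subunit of taste receptor cells. Tuft cells are not a regular part of the healthy adult mouse pancreas and are known from injury-induced metaplasia.

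Pooled over mice, Tuft-1 cells held a median of 17626.5 UMIs (3170 to 52183) and 4268.5 genes. Pooled medians were 17174 UMIs in Tuft-3 and 19939 UMIs in Tuft-2, but the subtypes mix the mice in different shares. By mouse, Tuft-1 medians were 16741.5 and 18252 UMIs at 2 weeks and 14047.5 and 14391 at 4 weeks. Those of Tuft-3 were 17942 and 21310, then 13621 and 15792 UMIs. Summed over the Tuft-1 cells of a mouse, 147344 and 3039893 UMIs were available at 2 weeks and 180971 and 390480 at 4 weeks. One UMI is therefore worth 6.79, 0.329, 5.53 and 2.56 CPM (the UMIs of a gene scaled to a fixed total for each mouse and subtype), and low levels are coarse outside the second 2-week mouse. The MucinDuctalProgenitor sum of the first 2-week mouse was smaller still, at 72021 UMIs. Mitochondrial UMIs took a median of 2.498% per cell. Of the Tuft-1 barcodes, 2 also occurred in another mouse. Xist, the RNA of the inactive X chromosome, had 92, 4930, 232 and 0 UMIs in Tuft-1 cells of the 4 mice in the same order. The second 4-week mouse alone had none. With the first 4-week mouse left out, time and Xist status cannot be told apart.

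The promoters of 5 genes that the results below turn on are shown first, because these genes separate Tuft-1 cells from their neighbours in opposite directions. Gnat3, Sox4 and Ldhb were higher in Tuft-1 than in Tuft-2 and Tuft-3 cells, and Nrgn and Siglecf were lower. Each line gives the 250 bases before the first listed RefSeq start (build GRCm38.p6), 5' to 3' on the gene's strand. Capitals mark matches to GAGGAA, the core bound by ETS factors of the SPI family, or to its reverse complement. Of 9 genes looked up, 5 were matched. Stmn1, Tubb2b, Rac2 and Pate4 were not. The windows lie at chr5:17962320-17962569, plus strand (Gnat3), chr13:28953700-28953949, minus strand (Sox4), chr6:142507958-142508207, minus strand (Ldhb), chr9:37552746-37552995, minus strand (Nrgn) and chr7:43351091-43351340, plus strand (Siglecf).
Gnat3: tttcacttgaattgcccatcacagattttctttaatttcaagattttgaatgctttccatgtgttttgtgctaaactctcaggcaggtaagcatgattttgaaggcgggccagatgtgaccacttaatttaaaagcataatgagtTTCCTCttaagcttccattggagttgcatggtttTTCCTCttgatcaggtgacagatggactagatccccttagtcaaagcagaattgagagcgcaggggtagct
Sox4: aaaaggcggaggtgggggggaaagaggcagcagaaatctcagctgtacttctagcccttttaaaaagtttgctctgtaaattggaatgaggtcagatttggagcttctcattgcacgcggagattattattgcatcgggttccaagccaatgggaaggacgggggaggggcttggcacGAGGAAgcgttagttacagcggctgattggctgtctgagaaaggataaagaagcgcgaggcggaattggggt
Ldhb: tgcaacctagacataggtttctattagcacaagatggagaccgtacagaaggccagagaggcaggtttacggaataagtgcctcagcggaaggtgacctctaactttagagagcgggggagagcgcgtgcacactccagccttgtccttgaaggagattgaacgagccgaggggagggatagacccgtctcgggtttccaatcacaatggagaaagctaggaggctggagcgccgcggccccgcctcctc
Nrgn: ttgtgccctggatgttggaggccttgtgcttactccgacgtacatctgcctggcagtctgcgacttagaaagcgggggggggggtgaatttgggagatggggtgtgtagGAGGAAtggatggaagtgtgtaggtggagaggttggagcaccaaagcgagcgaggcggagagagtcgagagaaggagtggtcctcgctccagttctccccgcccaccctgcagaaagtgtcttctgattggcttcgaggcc
Siglecf: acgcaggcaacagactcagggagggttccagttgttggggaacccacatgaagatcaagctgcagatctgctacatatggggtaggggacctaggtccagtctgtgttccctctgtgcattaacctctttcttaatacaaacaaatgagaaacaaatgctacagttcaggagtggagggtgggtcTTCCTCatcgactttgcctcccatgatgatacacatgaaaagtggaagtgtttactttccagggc

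The Gnat3 window held GAGGAA 2 times, both on the opposite strand, at bases 146 and 180 counted from 1 at its 5' end. The Sox4, Nrgn and Siglecf windows held it 1 time each, at bases 179, 110 and 186, and the Ldhb window held none. On both strands, 23.1% of 27025 promoters of the same length held this motif, and a match is a description of letters only. None of the 5 windows held the POU octamer ATGCAAAT or TATAAA, on either strand. The octamer was found in 1.61% of these 27025 promoters and TATAAA in 13.0%. The promoters searched do not cover every chromosome. Among 67 genes of the tuft lists used below, 51 had a window and 5 of these (9.80%) held the octamer: Hpgds, Il4ra, Itpr3, Kctd12 and Tas2r108. Tas2r108 had 0 UMIs in Tuft-1, Tuft-2 and Tuft-3 cells. Il4ra and Itpr3 were 25.4 and 12.2 CPM in Tuft-1 and 29.0 and 27.6 CPM in MucinDuctalProgenitor cells. Of windows of genes called higher in Tuft-1 than in MucinDuctalProgenitor cells below, 13 of 215 (6.05%) held the octamer. Of those called lower, 7 of 150 (4.67%) did. Against Tuft-2 these were 3 of 52 (5.77%) and 4 of 163 (2.45%). Against Tuft-3 they were 4 of 127 (3.15%) and 6 of 359 (1.67%). No enrichment was tested. No motif contains another.

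The label was set beside its marker genes as a description. Gnat3 stood at 1744, 1654, 1940 and 1585 CPM in Tuft-1 cells of the 2-week and then the 4-week mice. It stood at 255, 434, 336 and 346 CPM in Tuft-2, at 188, 148, 129 and 86.6 CPM in Tuft-3 and at 13.9, 135, 42.1 and 156 CPM in MucinDuctalProgenitor cells. The Tuft-1 values lay above those of the other 3 subtypes in 4 of 4 mice, with no overlap. At least 1 Gnat3 UMI was found in 209 of 210 Tuft-1 cells (99.5%), with a median of 25 UMIs. After thinning to 5000 UMIs per cell, which left out 1 cell, the share was 96.5%, against 72.4% in Tuft-2, 37.9% in Tuft-3 and 21.9% in MucinDuctalProgenitor cells. Without thinning, 93.0%, 65.6% and 34.6% of these cells had a UMI. In Acinar cells 0.784% had one, and in cells without a type that held at least 2 UMIs of the B cell gene Cd79a 0.634% did. Median depth was 24008 to 32665 UMIs in Acinar cells of the 4 mice and 2973 to 3816 UMIs in the Cd79a-positive cells.

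Pou2f3 did not separate the 3 tuft subtypes. It reached 219 ± 25.5 CPM in Tuft-1 (SD, n = 4 mice), 228 ± 11.5 in Tuft-2 and 220 ± 20.6 in Tuft-3, and 76.0 ± 23.1 CPM in MucinDuctalProgenitor cells. It was detected in 192 of 210 Tuft-1 cells (91.4%). The name Gnat3-high thus describes these counts. It is not an independent check, because the authors' labels rest on the same counts. An order in time is not something the sampling measured, and the word early is not used here.

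Differences between subtypes are descriptions without a p-value, because the authors' labels rest on the same counts. For each mouse the ratio was log2((CPM + 10) in Tuft-1 / (CPM + 10) in the other subtype), and the mean and SD are over 4 mice. This scale understates differences of low genes. A gene is called higher or lower where its sign agreed in every mouse and its mean was at least 1 in size, that is 2-fold, among genes with at least 50 CPM in either subtype.

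The means were also set against all 8 other deposited subtypes. For Gnat3 the next highest mean was that of Tuft-2, and Tuft-1 led it by 2.34 on the log2 scale. Of 1494 genes at 100 CPM or more in Tuft-1 cells, 216 had their highest mean there, 34 were highest there in 4 of 4 mice, and 4 led the next subtype at least 2-fold. The other members of that group were Tubb2b (a beta tubulin, 239 against 75.4 CPM in MucinDuctalProgenitor), Mgst1 (a microsomal glutathione transferase, 685 against 292 CPM) and Nrep (1006 against 484 CPM in Tuft-2). Tmsb10, which encodes an actin-binding thymosin, ranked below these, at 3816 against 2020 CPM. As whole profiles across genes, which are not independent replicates, Tuft-1 sums resembled Tuft-2 most (Pearson r 0.835 to 0.908 over the 4 mice). For Tuft-3, r was 0.751, 0.800, 0.748 and 0.733, and for MucinDuctalProgenitor 0.600, 0.816, 0.667 and 0.802. Tuft-3 was thus the second most alike in the first mouse of each time point and MucinDuctalProgenitor in the second. The MucinDuctalProgenitor sums of the first mice were the smaller ones, at 72021 and 190181 UMIs against 3197695 and 301573 UMIs in the second mice. The part of this depth in the order was not tested. Each of the other 5 subtypes stayed at 0.690 or less.

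**Figure D1:**
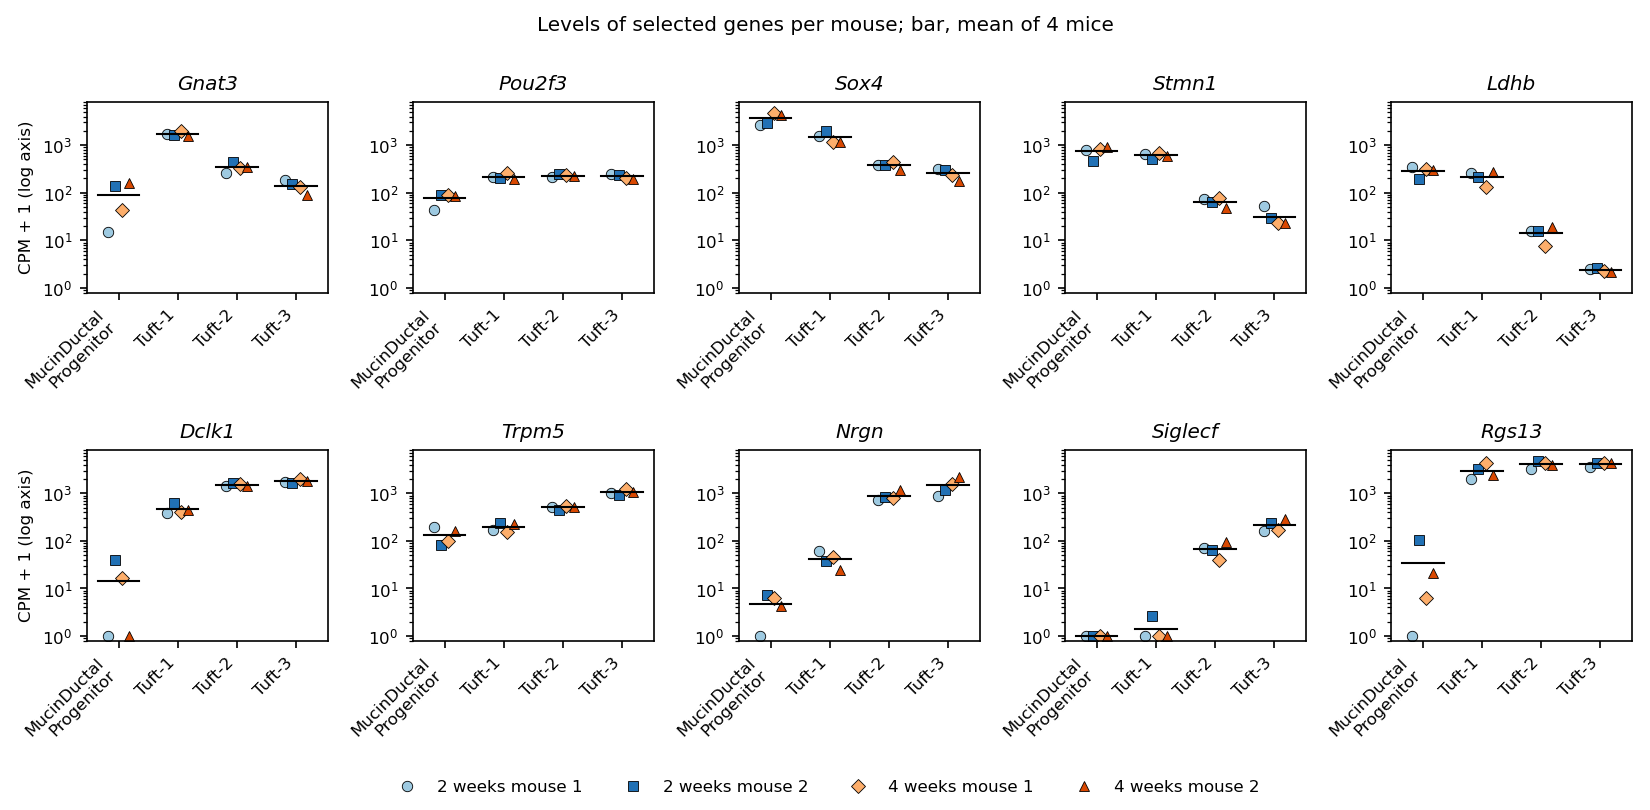
Levels of 10 genes as CPM + 1 on a log axis in the 4 subtypes. Each symbol is 1 mouse and each bar the mean of 4 mice. Gnat3 is highest in Tuft-1 cells, Pou2f3 is level over the 3 tuft subtypes, Sox4, Stmn1 and Ldhb step down, Dclk1, Trpm5, Nrgn and Siglecf step up, and Rgs13 is far higher in the 3 tuft subtypes than in MucinDuctalProgenitor cells.

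Most listed tuft genes were higher in Tuft-1 than in MucinDuctalProgenitor cells. Of 3343 genes compared, 269 were higher (8.05%) and 206 lower (6.16%), or 14.2% in either direction. Of the listed genes for tuft brush border, cytoskeleton and kinases, 18 of 20 compared (24 listed) were higher and 0 lower. The median log2 ratio over all 24 was 3.29, against 0.17 over all genes compared. Dclk1, a microtubule-linked kinase widely used as a tuft marker, stood at 0, 38.5, 15.8 and 0 CPM in the progenitor and at 380, 637, 403 and 456 CPM in Tuft-1 cells. The groups did not overlap. Fyb, an adaptor protein, was 1084 ± 217 CPM in Tuft-1 against 15.3 ± 20.1, and Avil, the actin-bundling advillin, 717 ± 157 against 122 ± 59.6.

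The signalling genes showed the same direction. Of the taste-type signalling list, 7 of 10 compared (19 listed) were higher in Tuft-1 than in the progenitor and 0 lower, among them Gng13, the gustducin gamma subunit, at 1052 ± 188 against 150 ± 87.9 CPM. Rgs13, a regulator of G protein signalling, had the largest ratio of all, 6.75 ± 1.47, from 0, 105, 5.26 and 19.9 CPM to 1995, 3322, 4294 and 2425 CPM. Trpm5 was an exception. It stood at 194, 81.9, 99.9 and 159 CPM in the progenitor and 170, 241, 155 and 223 CPM in Tuft-1 cells, so the ranges overlapped (0.58 ± 0.67, higher in 3 of 4 mice). Of the eicosanoid and cytokine list, 5 of 8 compared (12 listed) were higher and 0 lower. They were Alox5 and Alox5ap of leukotriene synthesis, Ptgs1 and Hpgds of prostaglandin synthesis, and Il25, which stood at 109 ± 33.6 CPM in Tuft-1 against 0.313 ± 0.625. Of 8 compared transcription factors (11 listed), 5 were higher: Pou2f3, Spib, Runx1, Hmx2 and Hmx3. Spib, an ETS factor, was 284 ± 35.1 against 7.87 ± 13.6 CPM. Sox4 was the 1 that was lower.

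The mucous program of the progenitor was low in Tuft-1 cells. Of 11 compared mucous-neck and pit-type genes (16 listed), 9 were lower and 0 higher, with a median over all 16 of -1.98. Summed, the list took 971, 1235, 2056 and 2023 CPM in Tuft-1 and 21063, 23443, 35019 and 21700 CPM in progenitor cells. Clu, encoding clusterin, was 10623 ± 3750.5 CPM in the progenitor and 306 ± 99.8 in Tuft-1, and Spp1, osteopontin, 4262 ± 2896 and 70.1 ± 28.9. Ttr, transthyretin, was 891 ± 59.6 against 12.9 ± 9.64 CPM, and Hes1, a Notch target, 129 ± 91.8 against 3.26 ± 2.52. Of 10 duct genes, 8 could be compared: Krt19, Spp1 and Ambp were lower and Anxa2 was higher. Leaving out the 2-week mice in turn gave 454 and 571 called genes in place of 475, and leaving out the 4-week mice 494 and 600.

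Part of the same lists was higher still in Tuft-2 and Tuft-3 cells. Of 3333 genes compared with Tuft-2, 71 were higher in Tuft-1 (2.13%) and 206 lower (6.18%), or 8.31% together. Of 3554 compared with Tuft-3, 174 were higher (4.90%) and 474 lower (13.3%), or 18.2% together. The split depended on scaling. With TMM factors, which align the bulk of genes in place of the totals, 50 were higher and 313 lower than in Tuft-2, and 123 higher and 630 lower than in Tuft-3. TMM moved the median of all genes to -0.24 from -0.07 for Tuft-2 and to -0.29 from -0.11 for Tuft-3. The 97 genes of ribosomal proteins took 231573 ± 10369 CPM in Tuft-1, 165558 ± 5096 in Tuft-2, 144205 ± 6688 in Tuft-3 and 243206 ± 26152 in progenitor cells, and their part in the split was not tested.

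Of 23 compared brush border, structural and kinase genes, 10 were lower in Tuft-1 than in Tuft-2 and 0 higher, with a median over all 24 of -0.92. Against Tuft-3, 14 of 24 were lower and 0 higher (median -1.09). Dclk1 was 1445, 1665, 1570 and 1395 CPM in Tuft-2 and 1708, 1617, 2042 and 1813 CPM in Tuft-3, above every Tuft-1 value. Its ratio was -1.70 ± 0.27 to Tuft-2 and -1.94 ± 0.43 to Tuft-3. Sh2d6, an SH2-domain protein, was 171 ± 87.2 CPM in Tuft-1 against 985 ± 45.1 in Tuft-2. Rac2, the haematopoietic Rac GTPase, was 20.4, 27.3, 16.6 and 0 CPM in Tuft-1 and 310, 210, 158 and 222 CPM in Tuft-2, with no overlap. Siglecf, a sialic acid-binding lectin, had 0, 1.64, 0 and 0 CPM in Tuft-1 and 71.3, 63.9, 38.1 and 93.4 CPM in Tuft-2, and a UMI of it was found in 5 of 210 Tuft-1 cells (2.38%), 46.8% of Tuft-2 and 89.5% of Tuft-3 cells. In Acinar cells the share was 0.514%. Thinned to 5000 UMIs, the shares were 0.649% in Tuft-1, 23.7% in Tuft-2, 64.3% in Tuft-3 and 0.107% in Acinar cells.

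Several of the largest ratios below Tuft-2 belonged to genes outside the tuft lists. Nrgn, neurogranin, a calmodulin-binding protein, was 61.1, 36.2, 44.2 and 23.0 CPM in Tuft-1 and 738, 846, 782 and 1158 CPM in Tuft-2 (-4.15 ± 0.74). Calml4, a calmodulin-like protein of brush borders, was 70.8 ± 31.6 against 706 ± 150 CPM, Tesc, a calcium-binding EF-hand protein, 23.7 CPM on average against 312 ± 108, and Serpinb1a, a protease inhibitor, 86.0 ± 21.5 against 638 ± 94.0. In Tuft-3 cells a further set was high that Tuft-1 cells nearly lacked. Pate4 was 0, 0, 5.53 and 0 CPM in Tuft-1 and 1201, 661, 1441 and 1322 CPM in Tuft-3. Folr1, the folate receptor alpha gene, was 0.164 ± 0.329 against 626 ± 252 CPM, and Bglap3, osteocalcin-related, 2.20 ± 2.96 against 1066 ± 504. Cdhr2 and Cdhr5, protocadherins that link microvilli, were 17.3 ± 6.53 and 3.83 ± 5.22 CPM in Tuft-1 against 448 ± 30.7 and 266 ± 81.0 in Tuft-3.

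The taste-type list had medians over all 19 members of -0.27 to Tuft-2 and -0.51 to Tuft-3. These were smaller in size than those of the brush border list, and the difference between lists was not tested. Of 12 compared taste-type genes (19 listed), Gnat3 was higher in Tuft-1 than in Tuft-2 and Trpm5 and Inpp5d were lower. Of 12 compared with Tuft-3, Gnat3 was higher and Trpm5, Itpr2 and Inpp5d were lower. Trpm5 was 512, 440, 553 and 506 CPM in Tuft-2 and 999, 941, 1215 and 1053 CPM in Tuft-3, and each Tuft-1 value lay below all of these. Rgs13 (-0.48 ± 0.35) and Plcg2, a phospholipase C (0.05 ± 0.18), were within 2-fold of Tuft-2. Il25 was within 2-fold on average (-0.40 ± 0.85) with a spread as wide as the difference. Alox5 (227 ± 67.6 against 480 ± 56.4 CPM) and Alox5ap (1292 ± 198 against 2912 ± 232 CPM) were the 2 of 8 compared eicosanoid and cytokine genes (12 listed) that were lower than in Tuft-2. Among 9 compared transcription factors (11 listed), only Sox4 was higher and only Hmx2 lower, at 124 ± 8.35 against 344 ± 53.4 CPM, and both held against Tuft-3.

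Some of the genes higher in Tuft-1 than in Tuft-2 were also high in the progenitor. Sox4, a SOX-family transcription factor of immature cells, was 1568, 1984, 1138 and 1181 CPM in Tuft-1. It was 2694, 2969, 4669 and 4397 CPM in the progenitor, 390, 384, 451 and 303 CPM in Tuft-2 and 321, 297, 237 and 176 CPM in Tuft-3, so the 4 subtypes formed non-overlapping steps except between Tuft-2 and Tuft-3. Stmn1, the microtubule destabiliser stathmin, was 652, 504, 691 and 589 CPM in Tuft-1, overlapping the progenitor (805, 459, 826 and 925 CPM). In Tuft-2 it was 71.3, 61.9, 75.1 and 46.4 CPM (ratio 3.08 ± 0.24).

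Ldhb, the lactate dehydrogenase B chain, had the largest ratio to Tuft-2, 3.25 ± 0.15. It was 258, 209, 133 and 266 CPM in Tuft-1, 14.6, 14.8, 6.53 and 18.3 CPM in Tuft-2 and 1.53, 1.61, 1.24 and 1.13 CPM in Tuft-3. The progenitor values of 347, 191, 315 and 295 CPM overlapped those of Tuft-1. Fabp5, a fatty acid-binding protein, Prdx1, a peroxiredoxin, Tead2, a Hippo pathway transcription factor, and Mex3a, an RNA-binding protein, were also higher in Tuft-1 than in Tuft-2. Their Tuft-1 levels were 105 ± 56.2, 502 ± 41.4, 140 ± 32.8 and 71.8 ± 16.1 CPM, against 8.99 ± 3.05, 149 ± 18.6, 31.5 ± 2.22 and 13.3 ± 3.91 CPM. Fabp5 and Gm49708 were lower than in the progenitor (-1.48 ± 0.90 and -1.20 ± 0.43), and Tead2 and Mex3a did not differ from it by 2-fold. Pga5, a pepsinogen gene, and Oxct1, a ketone body enzyme, completed the list with Mdk, the growth factor midkine, and all varied widely, with SDs of 1.79, 0.77 and 1.15 on the log2 scale.

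**Figure D2:**
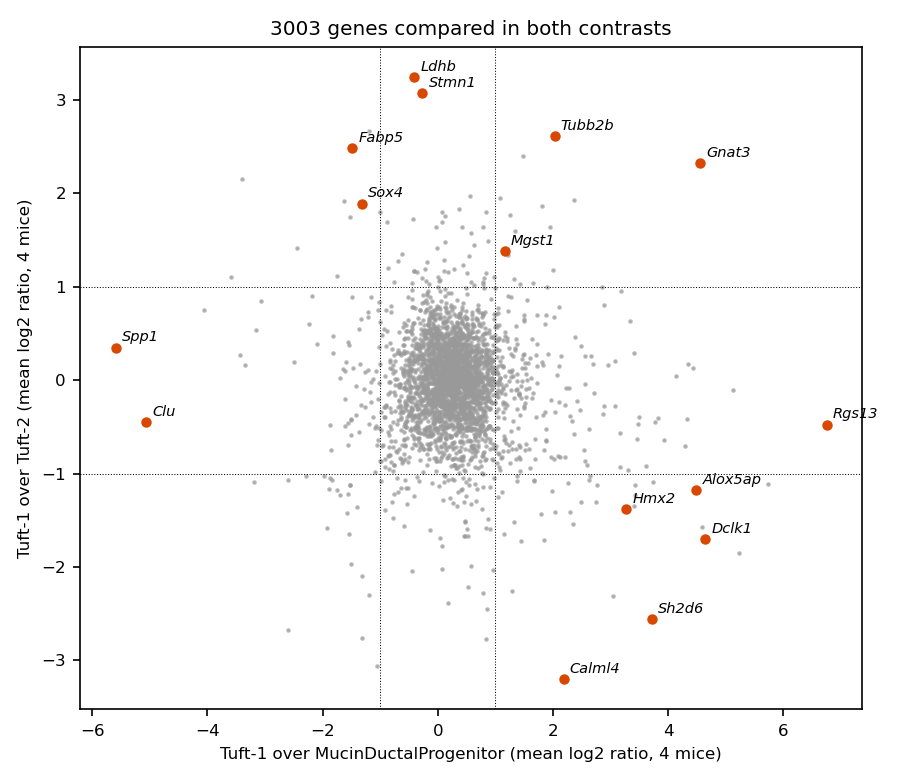
Mean log2 ratio of each of 3003 genes for Tuft-1 over MucinDuctalProgenitor (horizontal) and for Tuft-1 over Tuft-2 (vertical), over 4 mice, with dotted lines at 2-fold. The axes share the Tuft-1 values. Gnat3, Tubb2b and Mgst1 are above both neighbours, Stmn1 and Ldhb are above Tuft-2 only, and Dclk1, Sh2d6 and Calml4 lie above the progenitor and below Tuft-2.

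Set in the order MucinDuctalProgenitor, Tuft-1, Tuft-2 and Tuft-3, the means of 830 of 3896 genes (21.3%) were higher at every step and those of 409 (10.5%) lower. Tuft-1 had the highest mean of the 4 subtypes for 921 genes and the lowest for 702, so many genes did not place it between its neighbours. The place of Tuft-1 between progenitor and Tuft-2 was then read from genes that differ at least 4-fold between those 2 subtypes. Over 189 genes higher in Tuft-2, the median position of Tuft-1 was 62.6% of the way on the log scale (54.9% to 67.3% in the 4 mice), with quartiles over genes of 34.4% and 78.5%. Over 101 genes lower in Tuft-2, it was 80.5% of the way (78.3% to 84.3%), with quartiles of 62.7% and 94.97%, so the gene sets overlapped. In each mouse the median of the second set was the higher one. The genes were picked on the same Tuft-2 and progenitor values, and no test was made.

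Mki67 and Top2a, genes of dividing cells, had a UMI in 2 (0.952%) and 7 (3.33%) of 210 Tuft-1 cells. The shares were 1.31% and 5.91% in Tuft-2, 1.21% and 3.04% in Tuft-3, and 5.13% and 3.85% in MucinDuctalProgenitor cells. Both genes together had a UMI in 0 of 210 Tuft-1 cells. Taken as independent draws, which cells of the same mouse are not, this allows up to 1.43% of cells with UMIs of both. The figure leaves out variation between mice and sets no limit on dividing cells. The proliferation list summed to 2905, 2786, 2768 and 2989 CPM in Tuft-1, above Tuft-2 (1855 ± 148), Tuft-3 (1179 ± 46.9) and the progenitor (2236 ± 262) in 4 of 4 mice. Its largest members in Tuft-1 were Tubb5, Stmn1, H2afz and Cdkn1a, at 1118, 609, 503 and 391 CPM. Mki67 and Cdk1 stood at 0.164 and 0.640 CPM, so the sum is not a measure of dividing cells. Of 8 members compared with the progenitor, Cdkn1a, a cell cycle inhibitor, was higher (391 against 76.5 CPM) and the cyclin genes Ccnd1 and Ccnd2 were lower, with a median over all 21 of -0.0094. Of 21 listed proliferation genes, 6 were compared with Tuft-2, and only Stmn1 was higher. Stmn1 and Tubb5, a beta tubulin, were higher than in Tuft-3. Both encode parts of the microtubule system. Cdkn1c, a cell cycle inhibitor, was 165 ± 30.5 CPM in Tuft-1 and 160 ± 79.7 in Tuft-2, against 11.9 ± 3.24 in Tuft-3 and 31.4 ± 11.3 in the progenitor. Neurog3, the switch of the enteroendocrine lineage, had a UMI in 5 Tuft-1 cells (2.38%), against 12.8% of progenitor and 1.49% of Acinar cells. Thinned to 5000 UMIs per cell, these shares were 1.63%, 6.68% and 0.562%. All 45 Neurog3 UMIs of Tuft-1 cells came from the second 2-week mouse, and a single cell held 21. Chga, an enteroendocrine granule gene, also had a UMI in 5 Tuft-1 cells (2.38%), below the shares in progenitor (8.97%) and Acinar cells (5.87%).

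The 20 immune, stromal and endothelial markers summed to 27.1, 83.9, 33.2 and 20.5 CPM in Tuft-1 cells, with 7 of 20 at 0 UMIs in all mice, and to 32.0 to 96.5 CPM in Tuft-2. In Tuft-3 they summed to 641, 227, 66.5 and 324 CPM, where Cd74 and H2-Aa, genes of MHC class II presentation, were higher than in Tuft-1. Their part in the differences from Tuft-3 was not tested. The 27 enteroendocrine genes summed to 190, 89.1, 188 and 105 CPM, with 8 of 27 at 0, against 3443, 235, 4014 and 202 CPM in Tuft-2. Of these, Ghrl, the ghrelin gene, gave 3011, 39.4, 3707 and 32.1 CPM. Acinar enzymes took 26761, 6749, 11029 and 7716 CPM in Tuft-1, and the highest value came from the mouse with 6 cells. In the Cd79a-positive cells without a type they took 50422, 28552, 48172 and 214737 CPM. Per cell this was 657, 124, 166 and 116 UMIs in Tuft-1 against 221, 195, 331 and 1201 UMIs, so the Tuft-1 value was the higher one only in the first 2-week mouse.

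Of 12 compared immediate early genes (17 listed), 3 were higher in Tuft-1 than in Tuft-2 (Fos, Jun and Dusp1) and Klf4 was lower. Against Tuft-3, 5 of 12 were higher and Klf4 was lower. The list summed to 6095, 5961, 4890 and 5155 CPM in Tuft-1 against 3240, 3622, 3826 and 3579 CPM in Tuft-2, with no overlap. In MucinDuctalProgenitor cells it summed to 4624, 6313, 3213 and 3853 CPM, overlapping Tuft-1. Against that subtype, 1 of 12 compared genes was higher in Tuft-1 and 0 were lower. These genes also respond to tissue dissociation, whose part was not tested. Of 7 interferon and MHC class I genes compared with Tuft-2 (16 listed), 3 were lower (H2-D1, Irf7 and Ifi27) and 0 higher, and of 8 compared with Tuft-3, 6 were lower and 0 higher. The list summed to 1832, 776, 1608 and 1539 CPM in Tuft-1, 3675, 1604, 3109 and 3580 CPM in Tuft-2 and 5823, 2777, 3961 and 5084 CPM in Tuft-3, so the second 2-week mouse was lowest in each subtype while the order of the 3 tuft subtypes was the same in each mouse.

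Single Tuft-1 cells differed from one another in several of the same genes. Dclk1 had no UMI in 45 of 210 cells (21.4%), which were 2, 35, 2 and 6 cells by mouse, while every Tuft-2 and Tuft-3 cell had one. These 45 cells were nearly as deep as the rest (median 16315 against 17815 UMIs). In the second 2-week mouse, the only one with more than 6 such cells, they held Sox4 at 4011 CPM against 1490 CPM in the rest, Stmn1 at 802 against 431 CPM and Sh2d6 at 45.3 against 364 CPM. The split by Dclk1 was chosen after its values were seen. Sox4 was higher in the cells without Dclk1 in 4 of 4 mice. Gnat3 was lower in them in 4 of 4 mice, at 444, 1414, 1269 and 1154 CPM against 2098, 1713, 2117 and 1704 CPM. Stmn1 was higher in them in 3 of 4 mice, and in the second 4-week mouse it was 583 against 591 CPM. Clu and Trpm5 did not keep the same direction in every mouse. Clu, high in the progenitor, was 31.7, 315, 212 and 321 CPM in the cells without Dclk1 against 414, 376, 412 and 114 CPM. Trpm5, whose progenitor and Tuft-1 ranges overlapped, was 222, 193, 185 and 297 CPM in them against 155, 253, 147 and 202 CPM. The mouse that differed from the others was the second 4-week mouse for Clu and the second 2-week mouse for Trpm5.

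Over the 166 cells of that mouse, which share a library, Sox4 CPM and the summed brush border, structural and kinase list had a Spearman rho of -0.75. The same list without the gene itself had a rho of 0.68 with Dclk1 and -0.48 with Stmn1, against 0.087 with Gnat3, 0.0012 with Pou2f3 and 0.12 with the total UMIs of the cell. Over the 26 cells of the second 4-week mouse, rho was -0.31 for Sox4, -0.48 for Stmn1 and 0.41 for Dclk1. For Clu it was -0.029 over the 166 cells and 0.050 over the 26 cells, and for Rgs13 0.52 and 0.018. CPM values of a cell share its total, and no p is given.

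**Figure D3:**
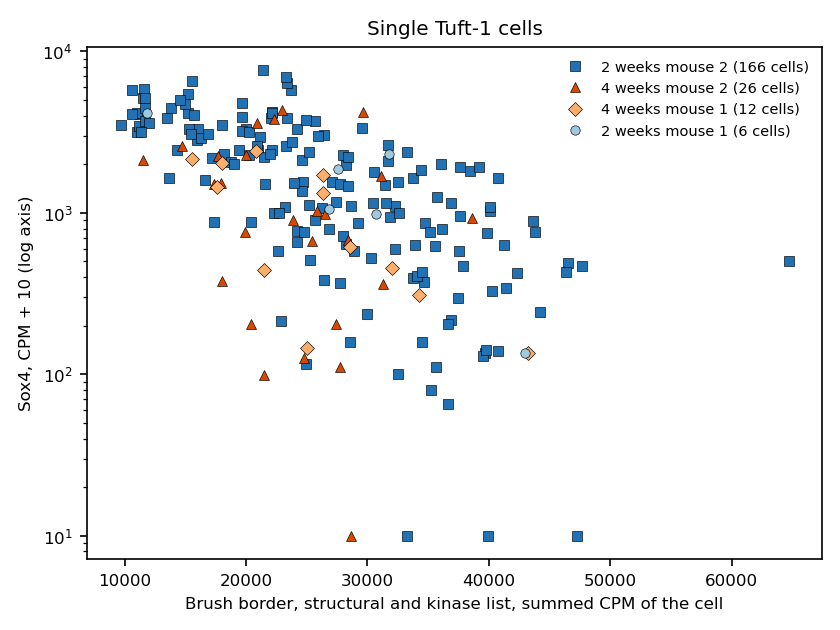
Each point is 1 Tuft-1 cell, with the summed CPM of the brush border, structural and kinase list (horizontal) and Sox4 as CPM + 10 on a log axis (vertical), by mouse. In the second 2-week mouse the list ran from 9663 to 64680 CPM with a median of 26112, and Sox4 tended to be higher where the sum was lower.

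The question of time was whether Tuft-1 cells became fewer, or changed, between 2 and 4 weeks of injury. Of tuft cells with a subtype, 8.11% of the first 2-week mouse were Tuft-1, with a 95% Clopper-Pearson interval of 3.03 to 16.8. The second 2-week mouse had 26.9% (interval 23.5 to 30.6). The 4-week mice had 6.63% (interval 3.47 to 11.3) and 8.97% (interval 5.94 to 12.9). The intervals cover counting error only. The second 2-week mouse stood apart, and the first lay between the 4-week mice. The means of 17.5% ± 13.3 and 7.80% ± 1.65 (SD, n = 2) differed by -9.73 percentage points, with a two-sided exact permutation p of 0.667, where 0.333 is the smallest possible. Of all cells with a type, Tuft-1 cells were 0.201% and 4.62% at 2 weeks and 0.426% and 0.654% at 4 weeks (exact p 1).

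**Figure D4:**
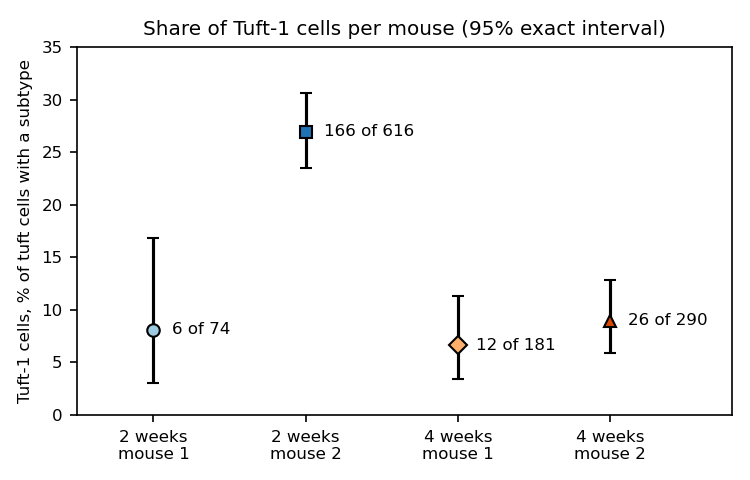
Tuft-1 cells in percent of tuft cells with a subtype in each mouse, with 95% exact intervals and the numbers of cells. The second 2-week mouse, at 26.9%, lies above the intervals of the other 3 mice.

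Within Tuft-1 cells, 7 of 4123 genes (0.170%) passed the time comparison (edgeR's quasi-likelihood test, Benjamini-Hochberg adjusted p under 0.05, 2 against 2 mice), and 143 had an unadjusted p under 0.05. For 1219 genes (29.6%) the mice of the time points did not overlap. With 2 against 2 mice this is common without a time effect, as the smallest possible exact permutation p of 0.333 shows. DESeq2 called 5 genes. Both 2-week mice had Xist UMIs but the second 4-week mouse did not, and the part of this difference in the calls was not tested. No tuft gene of the 4 tuft lists passed. Gnat3 had a log2 change of 0.04 (SE 0.191) and Pou2f3 of 0.04 (SE 0.248), each with an edgeR adjusted p of 1.00. Sox4, at -0.64 (SE 0.199), had both 4-week mice below both 2-week mice and an edgeR adjusted p of 0.763.

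Of the genes that passed, 3 were higher and 4 lower at 4 weeks. Pgc, the pepsinogen C gene of mucous neck and chief-type cells, rose by 3.34 (SE 0.377, edgeR adjusted p 0.00221), from 67.9 and 29.9 to 486 and 271 CPM. Cblif, gastric intrinsic factor, rose by 2.98 (SE 0.572, edgeR adjusted p 0.0456), from 13.6 and 7.90 to 82.9 and 58.9 CPM. Both are abundant in MucinDuctal cells, where Pgc took 58139 and 1252 CPM at 2 weeks and 66986 and 30113 CPM at 4 weeks and Cblif 5297 and 132 CPM, then 4132 and 2347 CPM. In Cd79a-positive cells without a type, Pgc was 310 and 161 CPM, then 481 and 1618 CPM, and Cblif 37.1 and 22.2 CPM, then 38.7 and 161 CPM, in the same order of mice. Pgc was 185 and 13.7, then 336 and 162 CPM in Tuft-2, and 121 and 11.8, then 249 and 182 CPM in Tuft-3. Cblif was 21.8 and 1.62, then 30.5 and 28.1 CPM in Tuft-2, and 27.5 and 3.76, then 35.4 and 22.6 CPM in Tuft-3. In MucinDuctalProgenitor cells Cblif was 97.2 and 48.8, then 305 and 477 CPM. The part of free RNA in these calls was not tested. Cblif passed 3 of 9 alternatives and was not called without the second 2-week mouse or without either 4-week mouse.

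Gm26917, a noncoding RNA, rose by 2.69 (SE 0.338, edgeR adjusted p 0.00309), from 27.1 and 74.7 to 542 and 330 CPM. In Tuft-2 cells of the same mice it was 30.6 and 44.5 CPM, then 57.7 and 53.9 CPM. In Tuft-3 cells it was 50.5 and 45.4 CPM, then 237 and 88.1 CPM, and in MucinDuctalProgenitor cells 27.8 and 57.2 CPM, then 216 and 82.9 CPM, so in each of these 3 subtypes both 4-week mice lay above both 2-week mice. Crym, a thyroid hormone-binding crystallin, fell by 1.89 (edgeR adjusted p 0.00309, SE 0.273). It went from 251 and 262 to 71.8 and 69.1 CPM. Its Tuft-2 levels were 84.4 and 68.6 CPM, then 54.4 and 57.3 CPM, and its Tuft-3 levels 96.4 and 73.5 CPM, then 101 and 67.0 CPM. The difference of time effects between subtypes was not tested. Pgc, Gm26917 and Crym passed all 9 alternatives run. In 4 of these a mouse was left out, so that a time point rested on 1 mouse assumed to vary like the other 2, and these fits called 17 to 47 genes.

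Oxct1 fell by 1.21 (edgeR adjusted p 0.0465, SE 0.236). It went from 441 and 422 to 177 and 195 CPM. Hspa1b, a heat shock protein 70 gene that also responds to handling, fell by 2.13 (edgeR adjusted p 0.0456, SE 0.404). Its levels were 67.9 and 109, then 22.1 and 23.0 CPM. Prss3, a trypsinogen, fell by 1.92 (edgeR adjusted p 0.0262, SE 0.323). Its levels were 217 and 393, then 66.3 and 99.9 CPM. In Acinar cells Prss3 was 4167 and 1291 CPM at 2 weeks and 1703 and 5724 CPM at 4 weeks. Without the second 2-week mouse, none of Prss3, Hspa1b and Oxct1 was called, with log2 changes of -1.29, -1.54 and -1.21. Prss3 passed 6, Hspa1b 5 and Oxct1 4 of 9 alternatives. All 3 were also lost in the fit that is not robust and without the deepest 10% of cells, Hspa1b and Oxct1 with DESeq2, and Oxct1 without the first 4-week mouse. The smallest sums behind these values were small, with 12 UMIs of Prss3, 4 of Hspa1b and 32 of Oxct1 in the first 4-week mouse.

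**Figure D5:**
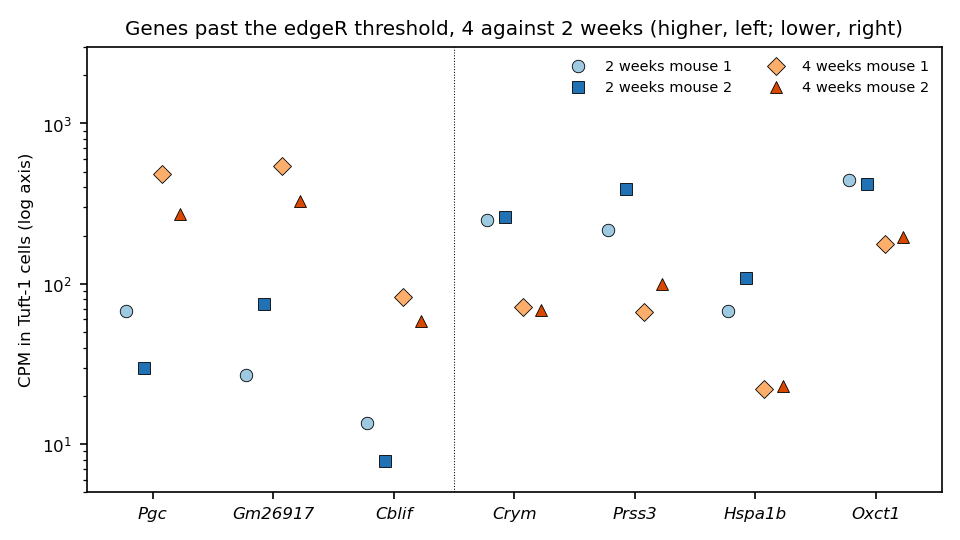
CPM on a log axis, in Tuft-1 cells of each mouse, of the 7 genes that passed the edgeR time comparison. Pgc, Gm26917 and Cblif are higher and Crym, Prss3, Hspa1b and Oxct1 lower in both 4-week mice than in both 2-week mice.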

How the data were processed

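Single-cell RNA was sequenced from sorted EYFP-positive pancreas cells of 4 mice. The values are raw UMI counts per gene and cell, deposited by the authors. The submitters' processing notes name Cell Ranger 4.0.0, Seurat 3.2.3 and the mm10 build. How they were used, and the parameters, are not given in the sources used here. Counts in the tuft and enteroendocrine table differed from those of the merged table by 0 in sum.

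UMIs were summed per mouse and subtype and scaled to CPM. Subtypes were compared by log2 ratios with a pseudocount of 10 CPM, without a test. Time was tested with edgeR 4.0.16 (quasi-likelihood, robust, TMM, filterByExpr) in R 4.3.3. On simulated counts with 200 genes changed 4-fold, this fit recovered 177 with 9 false calls among 3952 genes. The simulation gave every gene 1 shared dispersion of 0.0315, so these rates need not hold for the real counts. The p-values measure the spread between mice. No doublet caller was run. The deepest 10% of cells were left out as an alternative.

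The members and all 14 gene lists were chosen with earlier results of these data known. Named genes are list genes, the 10 per direction with the largest ratio at 100 CPM or more in the higher subtype, the 15 that lead all other subtypes, and those past the time threshold. The single-cell variation, the ribosomal genes, Xist and the promoters were added after the values were seen. Cell types are the authors' labels. Alternatives covered normalization, DESeq2, filters, pseudocount, cell minimum, means of single cells and each mouse left out. Some listed genes are not reported here.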

Additional observations from a re-analysis of the deposited data

Results flagged for a closer look

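Gnat3 also appeared outside the labelled subtypes. Of 1280 deposited Tuft cells, 106 carry no subtype and were used in no comparison. They held 537 Gnat3 UMIs, in 64 cells (60.4%), at 257 CPM and a median depth of 17653 UMIs. The share was 0.784% in Acinar, 65.6% in Tuft-3 and 93.0% in Tuft-2 cells. The level lay below the Tuft-1 level in 4 of 4 mice (109 and 423 CPM in the 2-week mice, then 134 and 89.7 CPM). In the same cells acinar enzymes took 55090, 39613, 54051 and 49938 CPM.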

How the results depend on the processing

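The count of 7 time calls was 27 with no gene filter, 4 with a fit that is not robust, 3 without the deepest 10% of cells and 17 to 47 with single mice left out, where 1 time point holds a lone mouse assumed to vary like the others. DESeq2 size factors in edgeR also gave 7. At a minimum of 10 CPM, 434 genes were called against Tuft-2, 1005 against Tuft-3 and 810 against MucinDuctalProgenitor, in place of 277, 648 and 475. In mice with at least 20 cells of both subtypes (2 mice), these were 311, 681 and 397. No direction was reversed for named genes past the 2-fold or the time threshold. Genes named for a small difference, such as Plcg2 against Tuft-2, are not covered by this. Of single genes, a pseudocount of 1 CPM enlarged most of the ratios that moved by more than 1 SD. No paired analysis was possible because the labels give the mice of the time points no shared numbers. With 6 and 12 Tuft-1 cells in 2 mice, genes below about 50 CPM rest on few UMIs.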
